A study of Mus musculus with 14 samples.

Results

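The comparison set H3K27ac-bound DNA of XEN cells beside that of retinoic acid treated cells, bin by bin along the genome, for both the level of 5-methylcytosine (5mC) and the amount of H3K27ac-bound DNA. A member was a 200-bp bin with at least 30 CpG counts in the retinoic acid (RA) library and at least 30 in the 2 XEN replicates summed. Of 7282466 bins listed in any ChIP-BS-seq library analysed here, 99141 were members. In the RA library alone 154229 bins reached 30 counts, and in summed XEN 154028 did. The rule used no 5mC value. It used the counts that also give occupancy, and left out 55088 bins with 30 or more counts in RA but fewer in XEN and 54887 the other way round, which limits how far an occupancy ratio can go in either direction. Bins just inside the limits resembled those just outside. The 8106 bins with 30 to 34 RA counts had a median 5mC level of 55.9% in RA and 66.7% in XEN, and the 9446 bins with 25 to under 30 RA counts had 61.5% and 71.4%.

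H3K27ac is an acetyl group on the tail of histone H3 and marks active enhancers and promoters, whereas H3K4me1 marks enhancers more broadly, whether active or poised. 5mC is placed on CpG dinucleotides by DNA methyltransferases, and active regulatory DNA usually carries little of it. XEN cells correspond to the extra-embryonic endoderm of the early embryo, a lineage known for a methylation landscape that differs from that of the embryo proper. Because the chromatin was precipitated before bisulfite treatment, 5mC was read here in H3K27ac-bound nucleosomal DNA. A level between the extremes is an average over cells and molecules, and fewer cells with a state and a weaker state in each cell cannot be told apart.

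All cells came from R1, a male mouse embryonic stem cell (ESC) line. The RA cells were grown for 4 days with 1 µM retinoic acid and without LIF. The XEN cells were made directly from the ESCs over 9 days with 0.1 µM retinoic acid and 10 ng/mL Activin A, so both groups carry retinoic acid treatment, and they differ in its dose, in time, in Activin A and in medium. The groups were made separately, so a rise or fall below is a difference between them and not a course in time. The XEN titles also end in PE and the RA title does not. The paper describes paired-end sequencing and single-ended alignment for its ChIP-BS libraries, and what the ending PE means is not stated. ESCs after 2 days without 2i served as a further reference. There was 1 RA library and there were 2 XEN replicates. The paper states that each experiment was repeated, and it calls the XEN tracks repeats. Whether the RA library holds 1 culture or pooled repeats was not established. No label says that the XEN replicates came from separate cultures, so the spread given below may be technical. The RA library held 32305709 CpG counts, XEN replicate 1 held 12147115 and XEN replicate 2 held 15698181. The XEN files list only bins with 4 or more counts, so their totals are below their full depth. At the median member bin there were 81 counts in RA, 27 in XEN replicate 1 and 32 in XEN replicate 2. Bins are given by position in mm9. No gene annotation of that build was used here, so bins are not tied to genes, and the marker genes of XEN cells were not checked.

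The mark of the XEN libraries had to be settled first. Their sample labels say H3K4me1, whereas the names of their files say H3K27ac, and a further pair of XEN libraries has the marks the other way round. Coverage went with the file names. Across 670182 bins with at least 60 counts over the 6 libraries, counts of XEN replicates 1 and 2 had rank correlations of 0.55 and 0.56 with RA H3K27ac but of 0.03 and 0.01 with RA H3K4me1. The other XEN pair gave 0.12 and 0.10 with RA H3K27ac and 0.48 and 0.55 with RA H3K4me1. These correlations are descriptions across bins, which share CpG content and mappability. Peaks separated the pairs in part. RA H3K27ac peaks held 72.7% and 68.6% of the counts of XEN replicates 1 and 2 and 72.5% and 69.6% of those of the other pair (79.4% in RA H3K27ac), so this share did not tell them apart. RA peaks that only H3K4me1 has held 6.60% and 7.52% of the counts of XEN replicates 1 and 2, near the 5.49% of RA H3K27ac, and held 16.7% and 17.6% of the counts of the other pair, nearer the 21.7% of RA H3K4me1. The libraries labelled H3K4me1 are therefore treated below as the H3K27ac libraries of XEN cells.

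5mC in H3K27ac-bound DNA was higher in XEN cells than in RA cells. Over the 99141 bins it was 11.4% of CpG counts in RA (exact 95% interval 11.4 to 11.5), 16.7% in XEN replicate 1 (16.7 to 16.8) and 16.5% in XEN replicate 2 (16.5 to 16.6). Both XEN replicates lay above RA, and the gap to RA was far wider than the gap between them. With 2 libraries against 1, an exact permutation test cannot give a one-sided p below 0.333, so no test of the cell types was made. Intervals here and below cover counting error only and treat each CpG count as independent. CpGs of 1 read share their state, so the intervals are too narrow even for that. DNA outside the RA peaks of both marks also differed, with 61.9% 5mC in RA and 68.2% and 67.2% in the XEN replicates, and the part of this background in the difference was not tested. On the mitochondrial genome, which carries little 5mC, 32 of 497 RA counts read as methylated against 0 of 716 and 1 of 985 in the XEN replicates. These counts were also used to tell the methylated column and are no independent check, and the part of bisulfite conversion in the difference was not tested.

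The difference was uneven between bins. The median bin had 6.47% 5mC in RA, 8.82% in XEN replicate 1 and 9.09% in XEN replicate 2, and the median difference was only 0.39 points. The upper quartile of the bins stood at 41.7% in RA and at 52.9% and 53.8% in the XEN replicates. Bins over 80% 5mC were 3.12% of all in RA against 8.24% and 8.44% in the XEN replicates, while the unmethylated end differed little, with 47155 bins under 5% in RA and 44856 and 44873 in XEN.

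**Figure D1:**
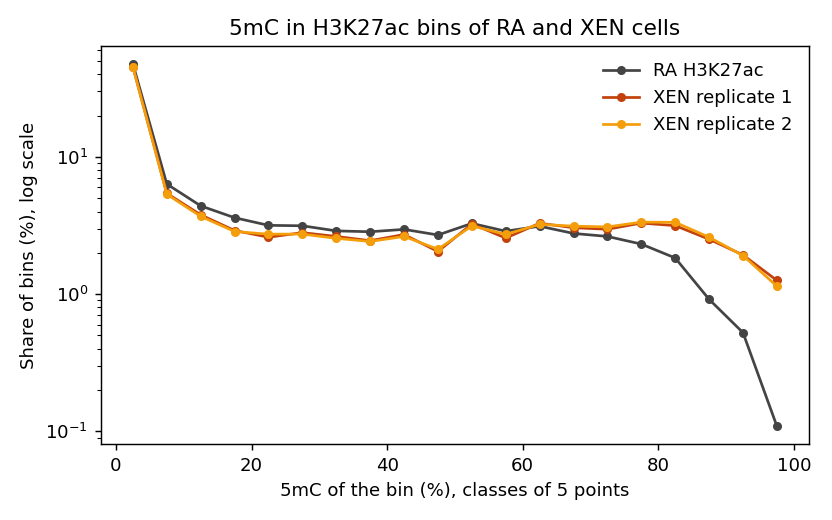
Share of the 99141 bins (%, log scale) in each class of 5 points of 5mC (x axis), with 1 line for the RA library and 1 for each XEN replicate. The XEN lines lie close together, below RA in the classes under 60% 5mC and above it from 60% on. The classes above 80% hold 3.12% of bins in RA and 8.24% and 8.44% in the XEN replicates.

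Classes were unmethylated regions (UMRs, under 20% 5mC), low methylated regions (LMRs, 20 to 80%) and bins over 80%. RA and XEN differed in class in both directions, with more bins in a higher class in XEN than in a lower one. Of 61379 UMR bins in RA cells, 55514 were also UMRs in summed XEN and 5856, or 9.54%, were LMRs. Of 34664 LMR bins in RA cells, 5389 (15.5%) were over 80% in XEN and 1295 (3.74%) were UMRs. Of 3098 bins over 80% in RA cells, 846 (27.3%) were LMRs in XEN, the largest share in another class but of the smallest RA class. With at least 15 counts in each replicate, both XEN replicates were LMRs in 3126 of the 5856 bins, both were over 80% in 2424 of the 5389 and both were UMRs in 619 of the 1295. These are class counts with no test, and bins near a boundary cross it by counting error alone.

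**Figure D2:**
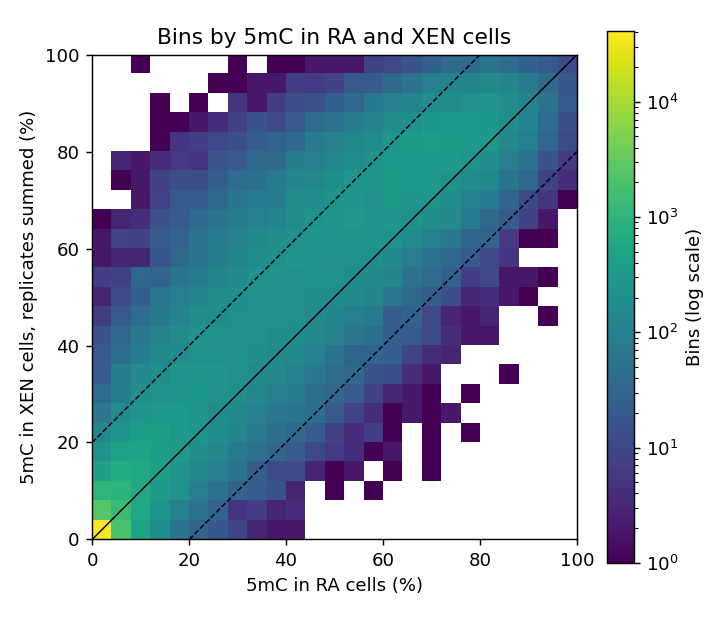
Number of bins (colour, log scale) by 5mC in RA cells (x axis, %) and in summed XEN replicates (y axis, %), in squares of 4 points. The solid line marks equal levels and the broken lines mark differences of 20 points, beyond which 9963 bins lay higher in XEN and 751 lower.

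Bins were then called one by one. Fisher's exact test (two-sided, Benjamini-Hochberg adjusted over all 99141 bins) compared the RA library with summed XEN, and a bin was called when the adjusted p was under 0.05, the difference was over 20 points and both XEN replicates lay on the same side of RA. By this rule 4423 bins were higher in XEN (4.46% of those tested) and 198 were lower (0.200%). In 3614 of the 4423 and 154 of the 198, each replicate by itself differed from RA by more than 20 points. The test compares libraries and not conditions, because the spread between RA cultures is unknown. When the spread between the XEN replicates entered the test (edgeR on methylated and unmethylated counts), 2331 bins were higher and 89 lower, and 2327 and 88 of them were among the bins called by Fisher's exact test.

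The spread between the XEN replicates was measured in the same way. In 37547 bins with at least 30 counts in each of the 3 libraries, the XEN replicates differed from each other with a standard deviation of 6.34 points, and the difference to RA had one of 8.50 and 8.55 points. Fisher's test called 2 bins higher in replicate 1 (0.00533%) and 1 bin higher in replicate 2 (0.00266%). Against RA, replicate 1 was higher in 615 bins and lower in 58, and replicate 2 was higher in 829 and lower in 45, although the RA library was deeper in these bins (median 154 counts against 52 and 60), which gives its comparisons more power. Without a test, the replicates differed from each other by more than 20 points in 320 bins in one direction and in 459 in the other. XEN replicates 1 and 2 were more than 20 points above RA in 1919 and 2040 bins and more than 20 points below it in 256 and 215. The pair of replicates has the lower depth and so the wider counting error, and its counts are no exact measure of what no change would give against RA.

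Where the rise fell was examined along a scale that the comparison did not use, the 5mC level of the same bin in the RA H3K4me1 library (60563 bins with at least 30 counts there). In 8961 bins under 5% on that scale, median 5mC was 1.32% in RA H3K27ac and 0 in both XEN replicates, and 30 bins (0.335%) were higher in XEN. At 20 to 40% the medians were 23.2% in RA and 32.3% and 33.3% in the XEN replicates. Levels of 40 to 60% showed the widest median difference, 10.9 points, with 45.0% in RA against 56.4% and 57.1%. Above 80% the medians were 79.1%, 84.6% and 85.2%. Bins called higher were 12.0% of those at 20 to 40%, 10.8% at 40 to 60% and 5.55% at 60 to 80%, as well as 5.40% (632 bins) at 5 to 20% and 2.81% above 80%, where many bins have no room for a rise of 20 points. In RA H3K27ac itself, 34.3% of the bins called higher were UMRs. Bins called lower had their highest share, 0.616%, at 40 to 60%.

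**Figure D3:**
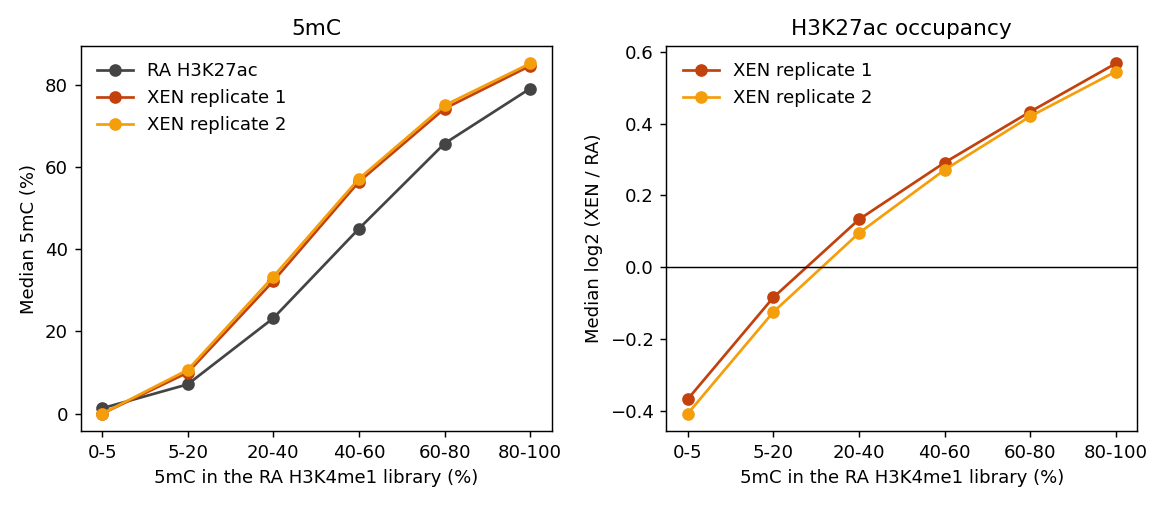
Left, median 5mC (%) in the RA H3K27ac library and in each XEN replicate. Right, median log2 ratio of H3K27ac occupancy, each XEN replicate over RA. Bins are grouped on both x axes by their 5mC in the RA H3K4me1 library. XEN lies above RA from 5 to 20% on, by 10.9 points at 40 to 60%, and the occupancy ratio runs from -0.37 and -0.41 in the lowest class to 0.57 and 0.55 in the highest.

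The called bins were followed into libraries that the calls did not use. In the other XEN pair, whose file names give H3K4me1, 5mC was set against RA H3K4me1. Of 4111 covered bins called higher, 3821 (93.0%) were also above RA H3K4me1 in both of those replicates, against 61.4% of all 54721 covered members. Both replicates were more than 20 points above in 1611 (39.2%, against 8.90%). Of 179 covered bins called lower, 142 (79.3%, against 16.6%) were below RA H3K4me1 in both replicates. Among bins at 20 to 80% in RA H3K27ac the shares were close to these: 92.3% of 2732 bins called higher were above in both replicates (67.4% of 32494 members) and 36.8% by more than 20 points (10.7%), and 80.5% of 159 bins called lower were below (14.3%). The median bin called higher stood at 39.7% 5mC in RA H3K4me1 and at 63.2% and 63.3% in the other XEN pair, and the median bin called lower at 51.2% against 33.6% and 32.0%. Most called bins thus had the same direction in libraries made with the other antibody.

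The ESC libraries gave a reference level. Whether RA or XEN differentiation began from the state of these ESCs is not stated in the paper. Of the 4423 bins called higher, 2080 had at least 30 counts in ESC H3K27ac, and there the median was 5.04% in ESCs, 24.2% in RA and 61.5% and 62.5% in the XEN replicates. ESCs lay below RA in 1887 of them (90.7%), against 59.9% of all 57524 covered members, many of which were at or near 0 in RA. Among bins at 20 to 80% in RA it was 1172 of 1232 bins called higher (95.1%) and 7751 of 8238 members (94.1%), so an ESC level below RA was no mark of the called bins at a like level. In ESC H3K4me1, which covered 3568 bins called higher, ESCs lay below RA H3K27ac in 74.0% of these and 69.4% of covered members. For bins called lower only 30 were covered in ESC H3K27ac, with medians of 14.0% in ESCs, 38.4% in RA and 7.62% and 8.39% in XEN. In 23 of these 30 the ESC level was below RA, and in 7 the order ran from ESCs over RA down to XEN. At 20 to 80% in RA the ESC level was below RA in 21 of 28 bins called lower (75.0%), a smaller share than the 94.1% of members.

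**Figure D4:**
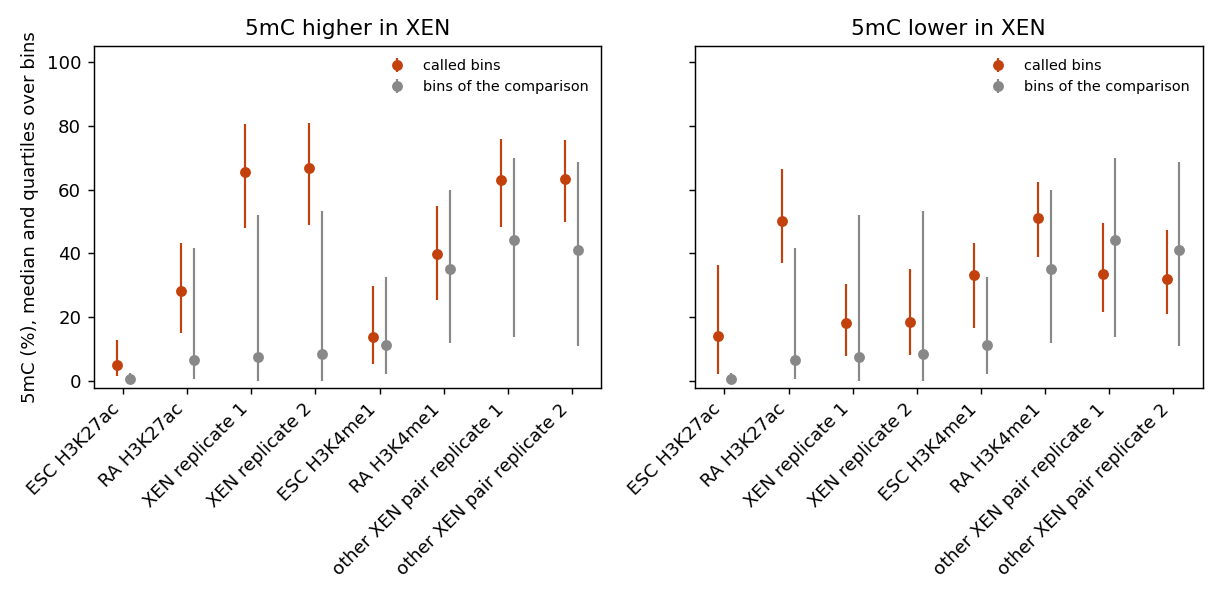
Median 5mC (%, points) and quartiles over bins (lines) in 8 libraries, for bins called higher (left) and lower (right) in XEN and for all members with enough counts (grey). For bins called higher the median is 5.04% in ESC H3K27ac, 28.2% in RA H3K27ac and 65.4% and 66.7% in the XEN replicates, and the other XEN pair is above RA H3K4me1 too. Each median is over the bins with enough counts in that library, which were 2080 of 4423 in ESC H3K27ac.

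Single bins are given where counts were high, at least 100 in RA and 50 in each XEN replicate, which 169 bins called higher and 8 called lower met. The bin chr11:86393601-86393800 had 27.4% 5mC in RA (263 counts, exact 95% interval 22.1 to 33.2), 74.4% in XEN replicate 1 (90 counts, 64.2 to 83.1) and 58.6% in XEN replicate 2 (70 counts, 46.2 to 70.2). Its difference of 40.1 points was the widest among these bins (Fisher's exact test, adjusted p = 1.63e-11), and ESC H3K27ac stood at 5.06%. At chr8:28271601-28271800 the level was 23.3% in RA and 58.0% and 67.1% in the XEN replicates. At chr9:71337601-71337800 an intermediate level of 49.2% in RA, close to the 45.1% of ESCs, stood against 84.9% and 90.6% in the XEN replicates. The bin chr14:120754601-120754800 read 0 in ESCs, 20.1% in RA and 63.1% and 50.8% in XEN. The bin chr12:100570201-100570400 had 33.0% in RA against 72.5% and 67.2%. In all 5 bins neither XEN replicate came near the RA level, and their occupancy differed from RA by less than 2-fold, with log2 ratios between -0.43 and 0.58.

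Bins called lower were rarer and reached smaller differences. At chr8:126321201-126321400 5mC was 51.6% in RA (157 counts, interval 43.5 to 59.6), 20.1% in XEN replicate 1 (134 counts, 13.7 to 27.9) and 19.5% in XEN replicate 2 (154 counts, 13.5 to 26.6), a fall of 31.8 points (Fisher's exact test, adjusted p = 2.38e-08). The other XEN pair read 29.2% and 20.2% there against 53.2% in RA H3K4me1. At chr1:158992401-158992600 the level was 64.5% in RA and 29.4% and 36.4% in XEN. At chr5:147874801-147875000 the replicates disagreed in size, with 28.1% and 49.1% against 67.8% in RA. The other XEN pair read 71.8% and 59.1% in that bin, against 65.2% in RA H3K4me1, so that the fall was not seen there. The bin chr17:13880601-13880800 had 46.1% in RA against 23.1% and 18.2%, and chr14:30918001-30918200 had 54.3% against 28.8% and 35.6%. Of these 5 bins only the first and the second kept their call in edgeR and without either XEN replicate. The bin chr14:30918001-30918200 lost it in each of these (a fall of 18.7 points without replicate 1), chr17:13880601-13880800 lost it in edgeR, and chr5:147874801-147875000 lost it without replicate 1 (a fall of 18.7 points).

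Called bins mostly stood alone. The 4423 bins called higher formed 3617 runs of bins no more than 1000 bp apart, 3041 of them single bins, and 134 runs had 3 or more bins. The 198 bins called lower formed 186 runs, 176 of them single bins. Neighbouring bins can share reads and are not independent. The longest run of higher bins, chr4:137029601-137035200, held 11 called bins among 22 members, and over the called bins 5mC was 20.5% in RA (907 counts) and 49.8% and 58.3% in the XEN replicates (293 and 326 counts). It was 9.13% in ESC H3K27ac, and the other XEN pair read 55.0% and 57.2% against 27.6% in RA H3K4me1. The run chr11:86392401-86395600 (9 called bins of 11) includes the first bin named above and stood at 29.0% in RA and 62.6% and 60.5% in XEN. The run chr7:109014201-109017800 (7 of 9) had lower levels, with 3.77% in ESCs and 10.7% in RA against 44.4% and 39.6% in the XEN replicates. The longest runs of lower bins were short. A stretch of 3 bins at chr14:30917401-30918200 had 43.7% in RA and 16.1% and 20.6% in XEN, and 3 at chr2:76336801-76337400 had 66.9% in RA and 23.9% and 33.6% in XEN, where ESC H3K4me1 read 88.9% on 18 counts. All other runs had at most 2 bins, and the one with the lowest start position, chr17:6016201-6016800, had 48.3% in RA and 11.0% and 18.8% in XEN.

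**Figure D5:**
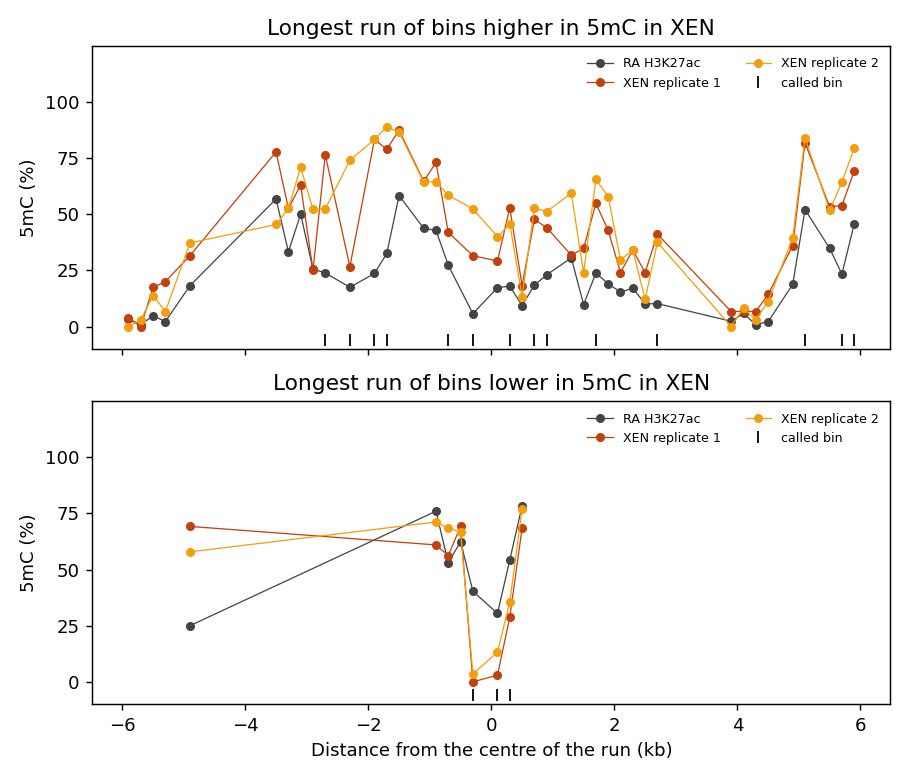
5mC (%) of each member bin against distance from the centre of the run (kb), for the RA library and each XEN replicate, with ticks under called bins. Over the called bins of the upper run XEN reads 49.8% and 58.3% against 20.5% in RA, and in the lower run 16.1% and 20.6% against 43.7%.

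The position of the bins relative to peaks differed between the directions. Nearly all members, 99.7%, overlapped an RA H3K27ac peak. An ESC H3K27ac peak overlapped 79.5% of all members, 77.5% of bins called higher and 44.4% of bins called lower. Bins outside ESC peaks had a median of 43.2% 5mC in RA and 50.0% in both XEN replicates. Bins inside had medians of 2.50% in RA and 2.74% and 2.94% in XEN, so few of them could fall by 20 points. Among bins with at least 20% 5mC in RA, 0.738% of 14907 outside and 0.385% of 22855 inside ESC peaks were called lower, and 4.88% and 9.53% were called higher, with no test of these differences.

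Along the chromosomes the rise was general. Leaving out bins with over 1500 summed XEN counts, bins called higher were between 3.85% and 5.68% of members on each of the 19 autosomes. On the X chromosome 32 of 1514 were higher, 2.11% (exact 95% interval 1.45 to 2.97), the lowest share of any chromosome. More X bins were UMRs in RA (84.3%). Among X bins at 20 to 80% in RA the share was 12 of 229, or 5.24% (2.74 to 8.97), and this interval overlapped the 6.73 to 11.0% of the autosomes. Occupancy on X was also lower in XEN, with median log2 ratios of -0.27 in both replicates. Unmethylated bins had low ratios on every chromosome. Among bins under 5% 5mC in RA the median was -0.46 on X (1056 bins), still the lowest, and between -0.39 and -0.22 on the autosomes. Over bins of every 5mC level, the medians of the autosomes, from the fit of both replicates, lay between -0.03 and 0.19, with chromosomes 6 (0.19) and 8 (0.14) highest.

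H3K27ac occupancy was compared by all CpG counts of a bin, methylated or not, with edgeR's quasi-likelihood test on 2 XEN libraries against 1 RA library. XEN cells had more H3K27ac at 1556 bins (1.57% of 99141) and less at 327 (0.330%), at an adjusted p under 0.05 and more than a 2-fold change. The spread came from the XEN replicates alone, and RA was assumed to vary like them. In 37547 bins with 30 counts in each library, log2 occupancy differed between the XEN replicates with a standard deviation of 0.44, and between each replicate and RA with one of 0.82. Without the test, 4580 bins were more than 2-fold higher and 3980 more than 2-fold lower in both replicates, a nearly even split where the calls were mainly higher. The smallest called change had a log2 size of 1.10 for rises and 1.67 for falls. No fall near 2-fold was called, and what set this limit was not tested.

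Some of the bins with more H3K27ac in XEN held extreme counts. The 5 highest ratios all came from 1 stretch, chr2:98505201-98507400, where for example the bin chr2:98507201-98507400 had 218 counts in RA, 24377 in XEN replicate 1 and 29764 in XEN replicate 2 (log2 ratio 8.32). The other XEN pair had 31043 and 51510 counts in this bin against 249 in RA H3K4me1, so all 4 XEN libraries stood apart there whatever the antibody. In all, 307 members had over 1500 summed XEN counts. Together they held 9.42% of the XEN counts but 0.974% of the RA counts, and every one was called higher, while none was called in 5mC. No RA bin exceeded 1128 counts. How duplicate reads were treated in the RA and XEN files is not given in the sources used here, and whether such pile-ups are occupancy was not tested. The same limit holds for every count and ratio of XEN against RA. Without these bins 1094 were called higher and 136 lower.

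Among called bins with at least 50 counts in each library and at most 1500 summed XEN counts, the second limit chosen after the values were seen, the highest ratios were at bins with next to no 5mC. The bin chr8:32260601-32260800 had 4.49 normalised counts (CPM) in RA and 120 and 114 in the XEN replicates (log2 ratio 4.70, edgeR adjusted p = 4.50e-07). The bin chr7:106331201-106331400 had 6.86 CPM in RA against 148 and 150, and chr11:115425401-115425600 had 6.46 against 142 and 136. On chromosome 8 the bins chr8:19784601-19784800 and chr8:87549201-87549400 had 6.05 and 6.29 CPM in RA, and at least 98.1 in each XEN replicate. 5mC in all 5 was 0 in RA and at most 0.382% in XEN replicate 1 and 0.389% in XEN replicate 2. In ESCs the counts were between 42 and 99, near the 55 to 84 of RA cells and below the 483 to 771 of the XEN libraries, which are the smaller ones.

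The 5 strongest falls were at unmethylated bins too. The bin chr6:52154001-52154200 had 34.6 CPM in RA and 4.36 and 2.92 in the XEN replicates (log2 ratio -3.25, edgeR adjusted p = 0.000566). A pair of bins lay close together on chromosome 19. At chr19:37773401-37773600 RA had 37.3 CPM against 4.13 and 4.67 in XEN, and at chr19:37771601-37771800 23.5 against 3.67 and 2.92. In these 3 bins ESCs were low as well, with 73, 38 and 17 counts against 423, 456 and 288 in RA, so counts were highest in RA among the 3 cell states. The bins chrX:131136201-131136400 and chr5:53981001-53981200 differed from this, with 279 and 292 counts in ESCs against 292 and 311 in RA, and low values only in XEN (at most 4.48 CPM). Of all 327 bins with less H3K27ac in XEN, 109 (33.3%) were also more than 2-fold lower in ESCs than in RA by scaled counts, against 46.5% of all members. Of the 1556 bins with more in XEN it was 4.18%. These shares are not matched for the kind of bin. An ESC H3K27ac peak overlapped 95.7% of the 327 bins and 98.9% of the 1556, against 79.5% of all members.

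Occupancy followed 5mC across bins. On the scale of the RA H3K4me1 library, median log2 occupancy rose class by class, from -0.41 under 5% to 0.63 above 80%, in both replicates alike. Members need 30 counts in both cell types, and methylated bins had few RA counts (median 40 above 80%), so their ratio could not fall far. Admitting bins with 30 counts in RA or in XEN, applied to these classes after the values were seen, gave medians from -0.91 to 0.93, but that filter takes in bins through whichever side is high (median counts of 86 in RA and 39 in XEN in the lowest class, 26 and 38 in the highest). The part of the count requirement in the slope therefore cannot be told apart from occupancy. The part of background DNA was not tested, but the share of counts outside both kinds of RA peak was 15.1% in RA and 20.7% and 23.8% in XEN.

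Calls in 5mC and in occupancy seldom fell on the same bin. Of the 4423 bins with higher 5mC, 7 (0.158%) had called higher and 6 (0.136%) called lower occupancy, against 1.57% and 0.330% of all members. Of the 198 with lower 5mC none was called in occupancy, where these shares leave few calls in so small a group. Occupancy was called almost only at UMRs with many counts. Median 5mC was 0.469% in RA at bins with more H3K27ac and 0.738% at bins with less, and median RA counts there were 248 and 247, against 79 elsewhere. The ratios themselves tended upwards where 5mC was lower in XEN, with a median log2 occupancy of 0.52 (0.53 and 0.46 in the replicates) and 83.3% of the 198 bins above 0. At bins with higher 5mC the median was 0.12 with 57.4% above 0, and at bins not called it was 0.03 with 51.6% above 0. These ratios depend on the scaling: library totals in place of TMM factors moved the median of all members from 0.04 to -0.11, so they are to be read against that median and not against 0. At a like level of 5mC in the RA H3K4me1 library, bins with higher 5mC had the lower median ratio in each of the 4 classes from 5 to 80%. At 20 to 40% it was -0.02 in 1477 bins with higher 5mC, 0.16 in 10815 bins not called and 0.57 in 40 bins with lower 5mC. At 40 to 60% it was 0.23 in 1349 bins with higher 5mC, 0.34 in 11084 not called and 0.52 in 77 with lower 5mC. Bins with lower 5mC had the highest median in all 4 classes. These medians are descriptions with no test.

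The 3 highest-scoring RA H3K27ac peaks, chosen after the data were seen, are given as examples of long domains. The first, chr8:11194072-11428331, spans 234 kb and held 261 members. Its 5mC was 39.0% in RA (17741 counts) and 54.7% and 54.2% in the XEN replicates, and its median log2 occupancy was 0.44. The second, chr1:191558816-191708959, had 57.5% in RA and 71.7% and 72.7% in XEN, and the third, chr17:68025980-68177862, had 40.5% in RA and 58.0% and 54.9% in XEN. In each, the XEN replicates differed from each other by less than they differed from RA. Bins called higher numbered 8 of 261, 18 of 214 and 5 of 133, of which only the second is above the 4.46% of all members. None was called lower or in occupancy, which is near the low shares of such calls among all members.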

How the data were processed

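ChIP-BS-seq libraries of R1 mouse cells were compared: RA H3K27ac (1 library) and XEN cells (2 replicates), with ESC, RA H3K4me1 and a further XEN pair as references. The methods state alignment by the authors with Bismark and Bowtie in a single-ended approach, to mm9 per the processing notes. The paper's results also state that reads with mixed CpG states were removed. Whether this holds for the deposited counts was not established. XEN titles end in PE, and no separate handling of these libraries is stated. The files deposited hold raw CpG counts in 200-bp bins, in separate columns for methylated and unmethylated CpGs. Tool versions are not given in the sources used here. Mitochondrial DNA, nearly free of 5mC, showed which column holds the methylated CpGs, and the XEN files have the columns in reverse order. The authors called peaks with HOMER (size 2500 bp, local and clonal filters off), and each deposited peak has a score, by which the 3 highest peaks were picked. A bin was in a peak at an overlap of 1 bp.

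Depth was 12147115 to 32305709 CpG counts in the 3 libraries, and intervals are exact Clopper-Pearson 95% intervals. The members, lists and alternatives were chosen with earlier results of these data known. 5mC per bin was tested with Fisher's exact test (two-sided, Benjamini-Hochberg adjusted, over 20 points, both replicates on the same side), which treats each CpG count as independent although CpGs of 1 read share their state. Between the XEN replicates the mean chi-square per degree of freedom was 1.35, where 1 is counting error alone. Occupancy was tested with edgeR 4.0.16 (quasi-likelihood, TMM over the members, R 4.3.3) on all CpG counts. CPM values are relative to the TMM-scaled library sizes. Single-replicate log2 ratios used a pseudocount of 0.5 CPM.

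Bins were named by size of difference: the 5 largest in each direction, for 5mC among called bins with at least 100 counts in RA and 50 in each XEN replicate, for higher occupancy with at least 50 in each library and for lower occupancy with at least 100 in RA, and the 3 longest runs in each direction. The 5 bins with at most 1500 XEN counts and the 3 peaks were added after their values were seen. Tests were checked on simulated data. Alternatives were other coverage minimums, a difference of 30 points, other tests (DESeq2 1.42.0), other scalings, other bins, leaving out each XEN replicate, and the other XEN pair. Gene assignment, input, H3K36me and single-cell samples were not analysed here. Scripts ran in Python 3.11.15 with scipy 1.17.1, numpy 2.4.6, numba 0.67.0, pandas 2.3.3 and matplotlib 3.10.9.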

Additional observations from a re-analysis of the deposited data

How the results depend on the processing

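In every alternative more bins were higher than lower in 5mC in XEN, but the counts moved with depth and with the test. Bins higher and lower numbered 1303 and 77 with at least 60 counts, 1199 and 96 with at least 30 counts in each library, 2832 and 88 with a difference over 30 points, 5942 and 338 with over 20 points in both replicates and no test, and 2331 and 89 in edgeR with the dispersion of the XEN replicates. Without XEN replicate 1 or 2, 840 to 1475 bins were higher and 67 to 69 lower, of fewer tested bins (54401 without replicate 1 and 43970 without replicate 2). The other XEN pair, labelled H3K27Ac but with the coverage of H3K4me1, gave 22306 higher and 193 lower bins against RA H3K27ac. Mark and cell state both differ in that comparison. In RA H3K27ac peaks, RA H3K4me1 itself read 51.7% 5mC against 28.3% in RA H3K27ac. The 2 other sets, at least 20 counts and bins in RA H3K27ac peaks, stayed within 1.5 times, as did leaving out bins with over 1500 XEN counts, an alternative chosen after seeing the data.

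For occupancy, bins called lower numbered 147 in DESeq2 (which gave no adjusted p for 65352 of the 99141 bins), 92 with at least 60 counts and 136 without bins of over 1500 XEN counts. With unmethylated counts only, 2802 bins were higher and 684 lower. The other XEN pair, which goes with H3K4me1 by coverage, gave 13293 and 17607 against RA H3K27ac, a comparison in which mark and cell state both differ. With 1 XEN replicate, a 2-fold difference with no test was met by 8027 to 8443 higher and 9540 to 11471 lower bins. Counts without a test are no like check of the calls, and with both replicates and no test they were 4580 higher and 3980 lower. The excess of higher bins was not seen with 1 replicate or with the other pair, and why was not tested.

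The difference in 5mC over all counts, 5.19 points, was 9.93 over all listed bins, 4.63 as a mean over bins, 2.71 with at least 60 counts and 5.35 without bins of over 1500 XEN counts. It was 26.5 with the other XEN pair, where the mark differs too. Without XEN replicate 1 or 2 it was 5.09 to 5.30. Of the bins named for 5mC, the 5 higher ones kept their call in edgeR and without either replicate, and 3 of the 5 lower ones lost it in at least one of these (2 in edgeR, 2 without XEN replicate 1, 1 without XEN replicate 2). None changed direction. No paired analysis was possible because the RA group has 1 library.

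Depth limits the XEN side most: at the median bin each XEN replicate has 27 or 32 counts, so differences under 20 points in single bins are mostly within counting error.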
